A study of Mus musculus with 6 samples.

Results

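The genes described here encode the fatty acid desaturases of the stearoyl-CoA desaturase family (Scd1, Scd2, Scd3 and Scd4) and of the front-end family (Fads1, Fads2, Fads3 and Fads6). They were taken by gene symbol, and all 8 were among the 17924 genes of the expression table. RNA-seq was performed on dermal fibroblasts from newborn (P0) C57BL/6J mice, isolated from the dorsal skin and kept for 14 days in a medium that drives them to form adipocytes, with 3 CTL and 3 Nelfb-/- libraries. Nelfb encodes a subunit of the negative elongation factor, which holds RNA polymerase II in a paused state shortly after the start of a gene, and the comparison asks how its loss changes gene expression in these adipocyte cultures. Nelfb-/- mice were Nelfb fl/fl with Pdgfra-Cre, and CTL mice were Nelfb fl/wt or Nelfb wt/wt with Pdgfra-Cre, so that both groups carried the Cre. The Cre is driven by the promoter of Pdgfra, a receptor gene of mesenchymal cells, and the deletion is permanent, so that it is passed on to the descendants of cells that used this promoter, while cells of other lineages keep Nelfb. The paper describes biological triplicates, but the labels do not say which CTL genotype each library has, or whether animals were pooled. P-values therefore measure the spread between these libraries, part of which may be technical. For each gene this spread was drawn toward that of genes of similar level. CTL replicates 1 and 2 lay far closer together than other pairs, as did Nelfb-/- replicates 2 and 3.

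Stearoyl-CoA desaturases sit in the membrane of the endoplasmic reticulum and place the first double bond into saturated fatty acyl-CoAs, turning stearate and palmitate into oleate and palmitoleate, the main monounsaturated fatty acids of stored triglyceride. Front-end desaturases add further double bonds on the carboxyl side of those a fatty acid already has, which makes arachidonate and other long polyunsaturated fatty acids from the essential fatty acids of the diet. Both families draw electrons from cytochrome b5 and its reductases, and in adipocytes Scd1 is known as an abundant mRNA that rises with differentiation and responds to SREBP1c, ChREBP and LXR.

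Levels are in CPM (counts for every 1000000 reads), the share of a library's gene reads that fell on a gene, and the depth read from the steps between low values was 17200000 to 29400000 reads. Nelfb itself was at 17.3, 19.6 and 22.3 CPM in the CTL libraries and at 5.50, 3.90 and 5.55 CPM in the Nelfb-/- libraries, a log2 difference of -1.99 (SE 0.22; limma, adjusted p = 0.0050). The adipocyte markers Adipoq, Plin1 and Fabp4 were detected in all 6 libraries, with Adipoq at 488 to 1857 CPM. CTL replicate 3 stood with Nelfb-/- replicates 2 and 3 on the second principal component of all tested genes, on the opposite side from CTL replicates 1 and 2 and Nelfb-/- replicate 1. The summed level of 12 fibroblast markers was 17093 CPM in CTL replicate 3, against 5104 and 4420 CPM in the other CTL libraries, and the 12 macrophage markers summed to 244 to 847 CPM in CTL against 2350 to 7461 CPM in Nelfb-/- libraries. In bulk RNA, fewer cells of a type cannot be told apart from less RNA of a gene in each cell.

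Of the 8 desaturase genes, Scd1, Scd2 and Scd4 were 4.76 to 5.14 times lower in Nelfb-/- than in CTL cultures, and none of the 8 rose. A gene was called at or below an adjusted p of 0.05 (limma on log2 values, Benjamini-Hochberg over 16252 genes) where its change was also 2-fold or more, which 3.64% of all tested genes met in the lower direction, 7.58% in the higher direction and 11.2% in either. The 3 libraries of a group did not overlap those of the other for 5 of the 8, all lower in Nelfb-/- cultures (Scd1, Scd2, Scd4, Fads2 and Fads6). Over all tested genes 38.1% did not overlap, 16.1% with Nelfb-/- lower and 22% with Nelfb-/- higher. The median log2 difference was -1.35 over the 8 desaturases and 0.068 over all tested genes. At an unadjusted p under 0.05 (limma), 6 of the 8 were lower and 0 higher, against 12.9% of all tested genes lower, 19.6% higher and 32.5% in either direction. No test was made over the list. The count of 3 rests on few libraries, and with 1 library left out it ranged from 0 (without CTL replicate 1 or Nelfb-/- replicate 3) to 4 (without Nelfb-/- replicate 1).

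**Figure D1:**
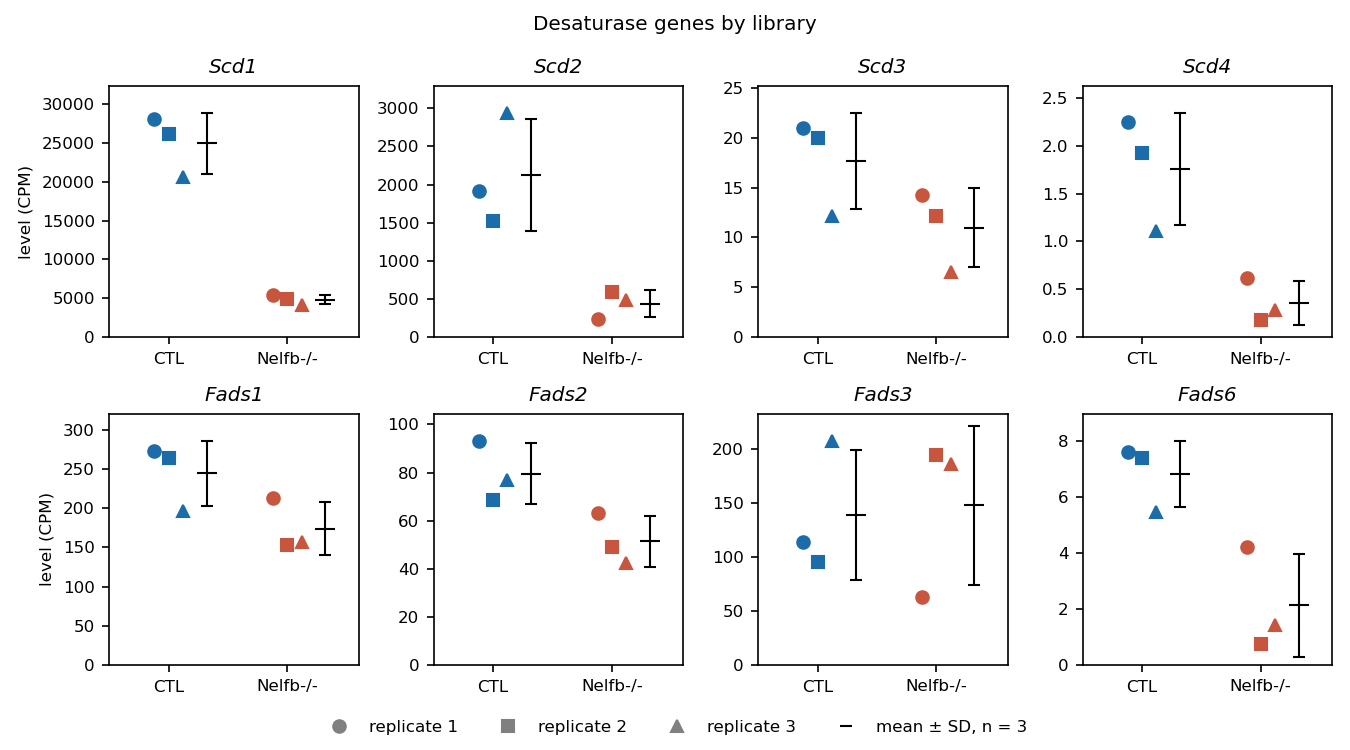
Level in CPM (linear axes from 0, one scale per gene) of the 8 desaturase genes in each library, with the mean ± SD of the 3 libraries of a group beside the points. The CTL and Nelfb-/- points stand apart for Scd1, Scd2, Scd4, Fads2 and Fads6 and overlap for Scd3, Fads1 and Fads3.

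Scd1 (ENSMUSG00000037071, chr19:44394455-44407879 of mm10, minus strand), the main stearoyl-CoA desaturase of adipocytes and liver, was at 28091, 26180 and 20552 CPM in the CTL libraries and at 5387, 4948 and 4177 CPM in the Nelfb-/- libraries. Every Nelfb-/- library was far below every CTL library, and the spread within each group was small beside the gap. The mean was 24941 ± 3919 CPM in CTL against 4838 ± 613 CPM in Nelfb-/- cultures (SD, n = 3). The log2 difference was -2.36 (SE 0.47, 95% confidence interval -3.48 to -1.24; limma, adjusted p = 0.021), 5.14-fold lower. This SE was widened by the abundance trend in the variance. Without the trend it was 0.19 (limma, adjusted p = 0.0038). Scd1 took 2.81%, 2.62% and 2.06% of all gene reads in the CTL libraries, and it ranked 1, 2 and 1 among all genes by reads. In the Nelfb-/- libraries it took 0.539%, 0.495% and 0.418% and ranked 10, 13 and 17. Since Scd1 makes up so much of a CTL library, the fit was repeated with the reads of the desaturases left out of the total, and its log2 difference was then -2.39. The call was lost, with differences of -2.38 to -2.26, without CTL replicate 1 or 2 or Nelfb-/- replicate 2 or 3 (limma, adjusted p = 0.078, 0.080, 0.098 and 0.14), and held without CTL replicate 3 or Nelfb-/- replicate 1.

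Scd2 (ENSMUSG00000025203, chr19:44293674-44306864, plus strand), the isoform known from brain and from the skin of newborn mice, was at 1913, 1519 and 2940 CPM in CTL and at 239, 589 and 487 CPM in Nelfb-/- cultures. All Nelfb-/- libraries were below all CTL libraries, with CTL replicate 3 the highest and Nelfb-/- replicate 1 the lowest of the 6. The log2 difference was -2.32 (SE 0.41, 95% confidence interval -3.31 to -1.33; limma, adjusted p = 0.016), 4.99-fold lower. By reads, Scd2 ranked 45, 56 and 20 among all genes in CTL libraries and 639, 173 and 222 in Nelfb-/- libraries. The difference missed the limit without CTL replicate 1 (-2.37; limma, adjusted p = 0.058) and without Nelfb-/- replicate 3 (-2.45; limma, adjusted p = 0.066).

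Scd4 (ENSMUSG00000050195, chr19:44333092-44346743, plus strand), known from the heart, was near the limit of detection. It was at 2.24, 1.92 and 1.11 CPM in CTL and at 0.617, 0.175 and 0.286 CPM in Nelfb-/- cultures. These values correspond to 49.8, 41.2 and 32.6 reads in CTL libraries and 13.0, 3.0 and 7.01 reads in Nelfb-/- libraries, so that counting error alone is large for the latter. The groups did not overlap, and the log2 difference was -2.25 (SE 0.53, 95% confidence interval -3.52 to -0.98; limma, adjusted p = 0.035), 4.76-fold lower. It was not called without CTL replicate 1 or 2 or Nelfb-/- replicate 2 or 3, at -2.05, -2.16, -1.89 and -2.18 (limma, adjusted p = 0.13, 0.13, 0.099 and 0.13).

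Scd3 (ENSMUSG00000025202, chr19:44203269-44244016, plus strand), an isoform of skin and Harderian gland, was at 20.9, 19.9 and 12.1 CPM in CTL and at 14.2, 12.1 and 6.58 CPM in Nelfb-/- cultures. The groups overlapped, since Nelfb-/- replicates 1 and 2 lay at or above CTL replicate 3. The log2 difference of -0.72 (SE 0.36, 95% confidence interval -1.57 to 0.14) did not pass the test (limma, adjusted p = 0.22). The end of Scd3 overlaps an unnamed gene model on the opposite strand, and whether reads were counted by strand is not stated in the sources used here.

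**Figure D2:**
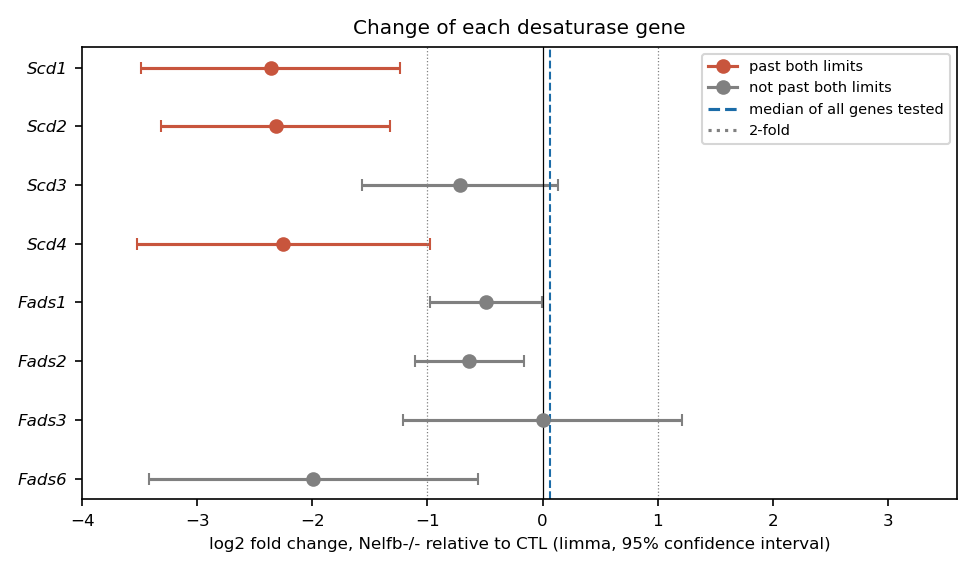
Log2 fold change of each desaturase gene in Nelfb-/- relative to CTL cultures (x axis, limma estimate with its 95% confidence interval), with the median of all tested genes dashed and 2-fold changes dotted. Scd1, Scd2 and Scd4 lie between -2.36 and -2.25, Fads6 lies at -1.99 with a wide interval, and Fads3 lies at 0.

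The 4 Scd genes stand in one cluster of 204.6 kb and are close copies of each other, which bears on how reads were divided among them. In an alignment of the coding sequences (GENCODE vM21 transcripts, GRCm38), Scd1 was identical to Scd3 at 91.5%, to Scd2 at 90.7% and to Scd4 at 86.1% of the aligned bases. The longest identical run was 185 bases with Scd3, 147 with Scd2 and 116 with Scd4. A read of 50 bases drawn from the Scd1 transcript would also match Scd3 for 3.49% of start positions, Scd2 for 3.03% and Scd4 for 1.76%. The stretch below shows why a short read can be shared, since all 4 transcripts hold the same 60 bases there (coding bases 586 to 645 of Scd1).
Scd1, Scd2, Scd3 and Scd4: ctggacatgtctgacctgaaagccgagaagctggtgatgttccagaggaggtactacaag
Over the 60 coding bases where the 4 differ most (from base 295 of Scd1, 304 of Scd2, 307 of Scd3 and 289 of Scd4), 29 bases are the same in all 4, and capitals mark those that differ from Scd1.
Scd1: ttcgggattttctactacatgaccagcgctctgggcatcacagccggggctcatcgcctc
Scd2: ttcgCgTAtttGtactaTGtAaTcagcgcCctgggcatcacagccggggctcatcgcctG
Scd3: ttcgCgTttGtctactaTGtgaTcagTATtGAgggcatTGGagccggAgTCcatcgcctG
Scd4: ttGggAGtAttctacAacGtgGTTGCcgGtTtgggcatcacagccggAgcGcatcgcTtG
Scd2 has 10 such bases, Scd4 has 17 and Scd3 has 18, so reads over this stretch can be assigned.

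The rare copies were therefore also set against Scd1. Scd4 held 79.9, 73.4 and 53.9 reads for every 1000000 Scd1 reads in CTL libraries and 115, 35.3 and 68.5 in Nelfb-/- libraries. This ratio overlapped between the groups, and the part of reads shared with Scd1 in the Scd4 level was not tested. Scd3 held 745, 762 and 591 reads for the same number of Scd1 reads in CTL libraries and 2637, 2455 and 1575 in Nelfb-/- libraries, with no overlap, as for 93% of all tested genes other than Scd1.

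Scd1 and Scd2 fell by a similar factor, but their ratio differed within each group. There were 14.7, 17.2 and 6.99 Scd1 reads per Scd2 read in CTL libraries and 22.5, 8.40 and 8.57 in Nelfb-/- libraries. The ratio was high in CTL replicates 1 and 2 and Nelfb-/- replicate 1 and low in the other 3 libraries, the same division as on the second principal component. The mean log2 ratio differed by -0.042 between the groups (exact two-sided permutation test, p = 1, adjusted p = 1 over 4 ratios, where the smallest p that 3 against 3 libraries allow is 0.1). Without Nelfb-/- replicate 1 the difference was -0.51, and without CTL replicate 2 it was 0.21.

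**Figure D3:**
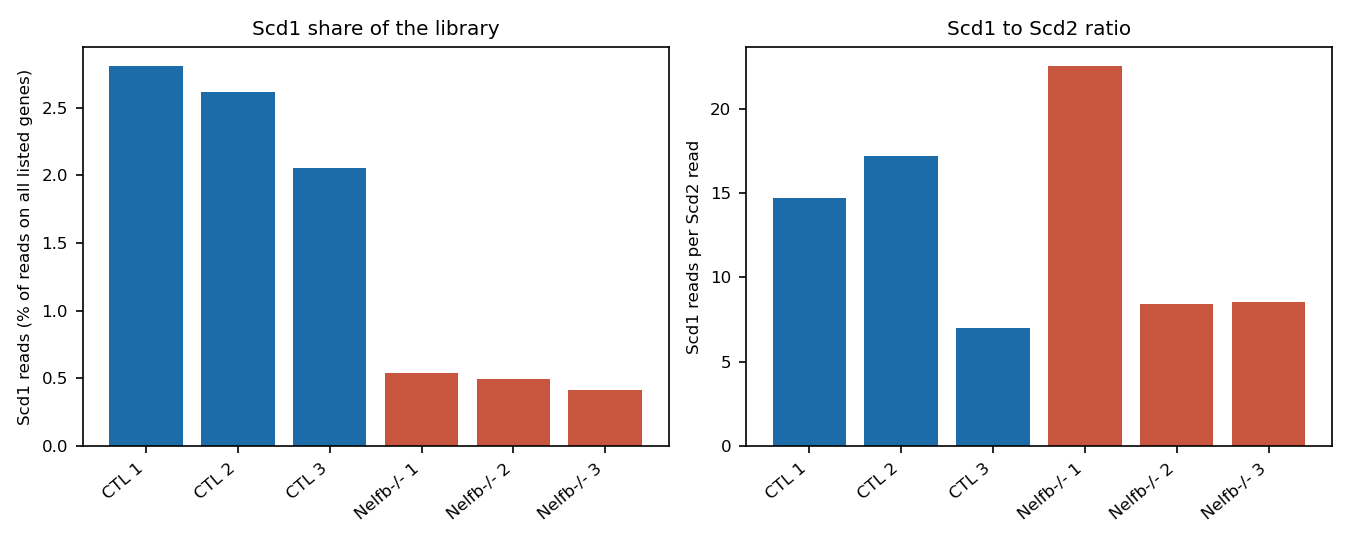
Share of all gene reads that fell on Scd1 in percent (left) and the number of Scd1 reads per Scd2 read (right) in each of the 6 libraries, as bars from 0. The Scd1 share was 2.06% to 2.81% in CTL and 0.418% to 0.539% in Nelfb-/- libraries, while the ratio was high in CTL replicates 1 and 2 and Nelfb-/- replicate 1 and low in the other libraries.

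The front-end desaturases as a family took 0.0435% to 0.0488% of gene reads in CTL libraries and 0.0342% to 0.0397% in Nelfb-/- libraries, and none of the 4 passed both limits (limma), while 3 were lower at an unadjusted p under 0.05, which 12.9% of all tested genes were. Fads1, Fads2 and Fads3 are neighbours within 155 kb of chromosome 19, and Fads6 lies on chromosome 11. Their coding sequences are less alike than those of the Scd genes, with 68.3% to 72.8% identity among Fads1, Fads2 and Fads3 and no identical run over 54 bases.

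Fads2 (ENSMUSG00000024665, chr19:10062765-10101746, minus strand), which carries out the first step from the essential fatty acids, was at 93.3, 68.5 and 76.8 CPM in CTL and at 63.1, 49.0 and 42.2 CPM in Nelfb-/- cultures. Every Nelfb-/- library was below every CTL library, the nearest being CTL replicate 2 and Nelfb-/- replicate 1. The log2 difference of -0.64 (SE 0.20, 95% confidence interval -1.11 to -0.16) did not pass the limit after adjustment (limma, adjusted p = 0.077).

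Fads1 (ENSMUSG00000010663, chr19:10182888-10196877, plus strand), which makes arachidonate in the last desaturation step, was at 273, 264 and 196 CPM in CTL and at 213, 153 and 157 CPM in Nelfb-/- cultures. The groups overlapped, since Nelfb-/- replicate 1 was above CTL replicate 3. The log2 difference was -0.49 (SE 0.20, 95% confidence interval -0.98 to -0.00075; limma, adjusted p = 0.15). There were 2.93, 3.85 and 2.56 Fads1 reads per Fads2 read in CTL libraries and 3.37, 3.11 and 3.72 in Nelfb-/- libraries, a mean log2 difference of 0.15 (exact two-sided permutation test, p = 0.5, adjusted p = 0.67).

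One gene of each family was compared within a library, as the ratio of Scd1 to Fads2. This pair does not stand for the families, since the log2 difference of Scd3 (-0.72) was near that of Fads2 (-0.64) and that of Fads6 (-1.99) nearer to that of Scd1. The ratio was 301, 382 and 268 in CTL libraries and 85.4, 101 and 98.8 in Nelfb-/- libraries, with no overlap. Scd1 per read of another gene was apart in this direction for 93% of all other tested genes, so the separation is not particular to Fads2. The mean log2 ratio was 1.73 lower in Nelfb-/- cultures, at 6.57 ± 0.13 against 8.29 ± 0.26 (SD, n = 3; exact two-sided permutation test, p = 0.1, adjusted p = 0.2 over 4 ratios). This p is the smallest that 3 libraries against 3 can give, so the design could not reach 0.05.

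Fads3 (ENSMUSG00000024664, chr19:10041569-10060110, plus strand), which acts on the sphingoid base of ceramides, was at 114, 95.2 and 207 CPM in CTL and at 62.4, 194 and 186 CPM in Nelfb-/- cultures. Its high libraries were CTL replicate 3 and Nelfb-/- replicates 2 and 3, and the groups overlapped, with Nelfb-/- replicate 1 below all CTL libraries and CTL replicate 3 above all Nelfb-/- libraries. The log2 difference was 0.00033 (SE 0.51, 95% confidence interval -1.21 to 1.21; limma, adjusted p = 1.0), an interval that leaves a change of 2-fold in either direction possible. Without Nelfb-/- replicate 1 the difference was 0.54 and without Nelfb-/- replicate 2 it was -0.28. Fads3 reads per Fads2 read divided the libraries in the same way, at 1.22, 1.39 and 2.702 in CTL and 0.990, 3.97 and 4.40 in Nelfb-/- libraries. The summed fibroblast markers were also higher in those libraries, at 17093, 31517 and 33928 CPM against 4420 to 8919 CPM in the other 3, and their part in the Fads3 level was not tested. The collagen genes Col1a1, Col1a2 and Col3a1 made up 77.1% to 91.6% of that sum. Of the 12 fibroblast markers 8 were higher in each of those 3 libraries than in any other, and Pdgfra, Dlk1, Dpp4 and Dcn were not. The 8 include Pi16, which was at 0.476 CPM or less and too low to be tested. The same libraries stood together on the second principal component of all tested genes. The share of all genes that divide in this way was not counted, so the count is no result about fibroblast markers. Among the 11 tested, 2 (Dlk1 and Dpp4) were called higher in Nelfb-/- cultures, against 7.58% of all tested genes. At an unadjusted p under 0.05 (limma) 5 of the 11 were higher, against 19.6%, and 10 of the 11 had positive differences. Dcn, which encodes decorin, was lowest in CTL replicate 3, at 310 CPM. The macrophage markers did not divide the libraries in this way, being highest in Nelfb-/- replicate 1.

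**Figure D4:**
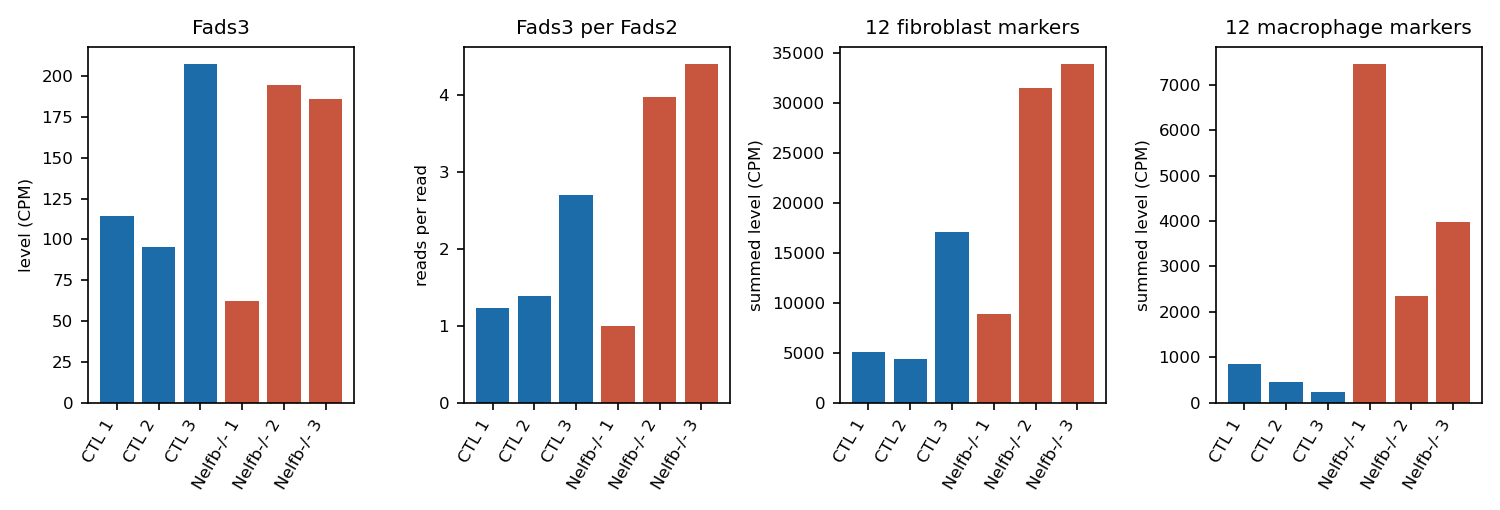
From left to right, the level of Fads3 in CPM, Fads3 reads per Fads2 read, and the summed levels in CPM of 12 fibroblast and 12 macrophage markers in each library, as bars from 0. The first 3 panels are high in CTL replicate 3 and Nelfb-/- replicates 2 and 3, while the macrophage markers are highest in Nelfb-/- replicate 1, at 7461 CPM.

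Fads6 (ENSMUSG00000044788, chr11:115279622-115297663, minus strand), a family member whose substrate is not established, was at 7.62, 7.42 and 5.47 CPM in CTL and at 4.22, 0.757 and 1.43 CPM in Nelfb-/- cultures. All Nelfb-/- libraries were below all CTL libraries, but Nelfb-/- replicate 1 was much closer to CTL than the other two. The log2 difference of -1.99 (SE 0.60, 95% confidence interval -3.42 to -0.56) did not pass the limit (limma, adjusted p = 0.070). Without Nelfb-/- replicate 1 it was -2.65 and passed (limma, adjusted p = 0.014).

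Levels can be compared between genes per length of exon. In CTL cultures the order in CPM per kb was Scd1 at 5098, Scd2 at 389, Fads1 at 50.8, Fads3 at 36.6, Fads2 at 24.1, Scd3 at 4.97, Fads6 at 1.03 and Scd4 at 0.466. The libraries of neighbours in this order overlapped only for Fads1 with Fads3 and for Fads3 with Fads2. In Nelfb-/- cultures Scd1 was still first at 989 CPM per kb and Scd2 second at 80.3, followed by Fads3 at 38.9 and Fads1 at 36.2. There the libraries of Scd2 overlapped those of Fads3, Fads3 overlapped Fads1 and Fads6 overlapped Scd4, while Scd1 remained above all others in every library.

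Position was not used to choose the genes, and the genes around them were compared. Of 9 tested neighbours within 250 kb of the Scd cluster, none was called (limma; 1 lower and 1 higher at an unadjusted p under 0.05, against 32.5% of all tested genes in either direction) and the median log2 difference was -0.077. Of 11 neighbours of the Fads1, Fads2 and Fads3 cluster 1 rose, Rab3il1 (8.43, 5.74 and 17.1 CPM in CTL, 25.1, 35.5 and 48.2 CPM in Nelfb-/-; log2 difference 1.89, limma, adjusted p = 0.033). Of 16 neighbours of Fads6 1 rose, Slc9a3r1, which encodes a scaffold protein of the cell membrane (log2 difference 1.09; limma, adjusted p = 0.045). At an unadjusted p under 0.05 (limma), 1 neighbour of the Fads1, Fads2 and Fads3 cluster was lower and 1 higher, and 0 neighbours of Fads6 were lower and 4 higher, against 12.9% and 19.6% of all tested genes. No tested neighbour of any of the 8 genes was called lower. Over all tested genes 3.64% were called lower and 11.2% in either direction, so these counts do not set the neighbours apart from other genes.

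Promoter sequences from RefSeq (GRCm38.p6, 250 bases before to 50 after the start) were matched for 5 of the 8 genes, Scd3, Scd4, Fads2, Fads3 and Fads6. They differed in their content of CpG, with 3 in Scd4 and 6 in Scd3 against 19 in Fads6, 23 in Fads2 and 31 in Fads3. The pair at the ends of this range is shown, Scd4, which fell, and Fads3, whose groups overlapped. Capitals mark matches on either strand to the GC box GGGCGG and to the CCAAT box.
Scd4 (chr19:44333076-44333375, plus strand): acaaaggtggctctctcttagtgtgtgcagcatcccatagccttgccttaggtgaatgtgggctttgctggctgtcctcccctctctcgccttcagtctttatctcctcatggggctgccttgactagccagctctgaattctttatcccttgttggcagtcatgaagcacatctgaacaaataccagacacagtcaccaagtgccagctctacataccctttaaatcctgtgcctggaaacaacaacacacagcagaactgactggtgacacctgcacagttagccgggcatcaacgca
Fads3 (chr19:10041298-10041597, plus strand): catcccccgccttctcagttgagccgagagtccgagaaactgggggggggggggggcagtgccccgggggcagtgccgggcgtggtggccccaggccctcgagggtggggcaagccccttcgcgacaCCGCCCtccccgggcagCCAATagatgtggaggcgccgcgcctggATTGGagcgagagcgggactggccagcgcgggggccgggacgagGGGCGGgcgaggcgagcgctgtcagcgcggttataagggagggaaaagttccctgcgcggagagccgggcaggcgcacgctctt
The GC box was found in Fads2, Fads3 and Fads6 and in 35.7% of 32851 promoters of this length, and the CCAAT box in Fads3 and in 37.4% of them. The SRE core TCACNCCAC, the C/EBP core TTGCNNAA, the E box CACGTG and the TATA box TATAAA were in none of the 5, and in 1.24%, 10.8%, 7.15% and 13.6% of all promoters. These matches describe the letters of these windows only.

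The genes that work with the desaturases were counted by list, to be read against the 11.2% of all tested genes that were called. Of 6 tested genes of electron supply (cytochrome b5 and its reductases) none was called (limma; 0 at an unadjusted p under 0.05), with a median log2 difference of -0.26. Cyb5r3, the main reductase, was at 247, 212 and 301 CPM in CTL against 205, 276 and 271 CPM in Nelfb-/- cultures (log2 difference -0.015; limma, adjusted p = 0.97). Of 19 regulators 1 fell, the coactivator gene Ppargc1b, from 20.2, 19.2 and 23.6 CPM to 9.01, 11.6 and 9.63 CPM (log2 difference -1.06; limma, adjusted p = 0.013). The median of the regulators was -0.21, and at an unadjusted p under 0.05 (limma) 7 of the 19 were lower and 1 higher, against 12.9% and 19.6% of all tested genes.

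None of the genes of the factors best known for driving Scd1 passed both limits. Of the 19 regulators 9 did not overlap between the groups, all of them lower in Nelfb-/- cultures except Scap and Ppard. Over all tested genes 38.1% did not overlap, 16.1% with Nelfb-/- lower and 22% with Nelfb-/- higher. Srebf1, which encodes SREBP1, was at 168, 141 and 312 CPM in CTL against 97.2, 369 and 309 CPM in Nelfb-/- cultures, high in the same 3 libraries as Fads3 (log2 difference 0.20; limma, adjusted p = 0.84). Mlxipl, which encodes ChREBP, had a log2 difference of 0.11 (limma, adjusted p = 0.81). Nr1h3, which encodes the oxysterol receptor LXR alpha, was at 56.2, 63.3 and 63.8 CPM in CTL against 37.1, 46.8 and 39.7 CPM in Nelfb-/- cultures. Its groups did not overlap, and its log2 difference of -0.57 had an adjusted p of 0.041 (limma) but was under 2-fold. With no limit on size, 5.83% of all tested genes were lower at that threshold. Nr1h2, the gene of LXR beta, was at 69.2, 82.1 and 62.1 CPM in CTL against 59.2, 36.0 and 35.5 CPM in Nelfb-/- cultures, with no overlap (log2 difference -0.74; limma, adjusted p = 0.082). Pparg, the central factor of fat cell formation, was at 158, 150 and 112 CPM in CTL against 98.5, 110 and 85.2 CPM in Nelfb-/- cultures, also with no overlap (log2 difference -0.51; limma, adjusted p = 0.11).

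Of 14 tested genes of fatty acid supply 1 rose and none fell, with a median log2 difference of 0.37. At an unadjusted p under 0.05 (limma) 5 of them were higher and 1 lower, against 19.6% and 12.9% of all tested genes. Acly, which makes cytosolic acetyl-CoA from citrate, rose from 131, 125 and 436 CPM in CTL to 529, 1914 and 1642 CPM in Nelfb-/- cultures (log2 difference 2.62; limma, adjusted p = 0.044). Fasn, fatty acid synthase, had overlapping groups (log2 difference 0.27; limma, adjusted p = 0.68). Elovl6, which lengthens palmitate to stearate, was at 4.24, 2.24 and 20.8 CPM in CTL against 10.9, 15.3 and 18.2 CPM in Nelfb-/- cultures (log2 difference 1.30; limma, adjusted p = 0.30). There were 6557, 11458 and 987 Scd1 reads per Elovl6 read in CTL libraries and 494, 324 and 230 in Nelfb-/- libraries, with no overlap, as for 93% of all other tested genes (exact two-sided permutation test, p = 0.1, adjusted p = 0.2).

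Of 14 tested genes of the elongation cycle, whose enzymes lengthen the products of the desaturases, 2 fell and 2 rose, with a median of -0.0072. Over all tested genes 3.64% were called lower and 7.58% higher. At an unadjusted p under 0.05 (limma) 3 of the 14 were lower and 2 higher, against 12.9% and 19.6%. Hacd2, a dehydratase of the cycle, fell from 188, 190 and 95.01 CPM to 36.2, 39.1 and 33.0 CPM (log2 difference -2.06; limma, adjusted p = 0.0085), and Elovl4, an elongase of very long chains, fell by 1.85 on the log2 scale (limma, adjusted p = 0.048). Hacd4, another dehydratase, rose by 1.31 (limma, adjusted p = 0.027). Elovl2, an elongase of polyunsaturated chains, was at 0.135, 0 and 0.102 CPM in CTL, at or under the 3 reads taken as the limit of detection, and at 0.853, 2.39 and 1.88 CPM in Nelfb-/- cultures. It was called higher (limma, adjusted p = 0.016), and the size of its change depends on the pseudocount. Elovl5, the common elongase of polyunsaturated chains, was at 78.7, 64.4 and 72.8 CPM in CTL against 63.9, 74.2 and 79.3 CPM in Nelfb-/- cultures (log2 difference 0.0093; limma, adjusted p = 0.97).

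Of 20 tested genes that use the products, 1 fell and 4 rose, with a median of -0.15, against 3.64% and 7.58% of all tested genes. At an unadjusted p under 0.05 (limma) 2 of the 20 were lower and 4 higher, against 12.9% and 19.6%. These unadjusted counts are near the shares of all tested genes. Lpin1, a phosphatidate phosphatase of triglyceride synthesis, fell from 709, 740 and 384 CPM to 303, 193 and 177 CPM (log2 difference -1.43; limma, adjusted p = 0.034). Alox5, the leukotriene-forming lipoxygenase of myeloid cells, rose from 1.67, 0.653 and 0.986 CPM to 18.1, 8.03 and 17.4 CPM (log2 difference 3.67; limma, adjusted p = 0.0066). The phospholipid acyltransferases Lpcat2, Lpcat1 and Lpcat4 rose by 2.57, 1.18 and 1.18 on the log2 scale (limma, adjusted p = 0.0093, 0.045 and 0.021). Of the 12 macrophage markers 11 were called higher in the same cultures, against 7.58% of all tested genes, and their part in the rise of Alox5 and the acyltransferases was not tested. Of 5 tested desaturases and hydroxylases of other families none was called (limma; 1 lower and 2 higher at an unadjusted p under 0.05, against 12.9% and 19.6% of all tested genes), with a median log2 difference of 0.36.

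**Figure D5:**
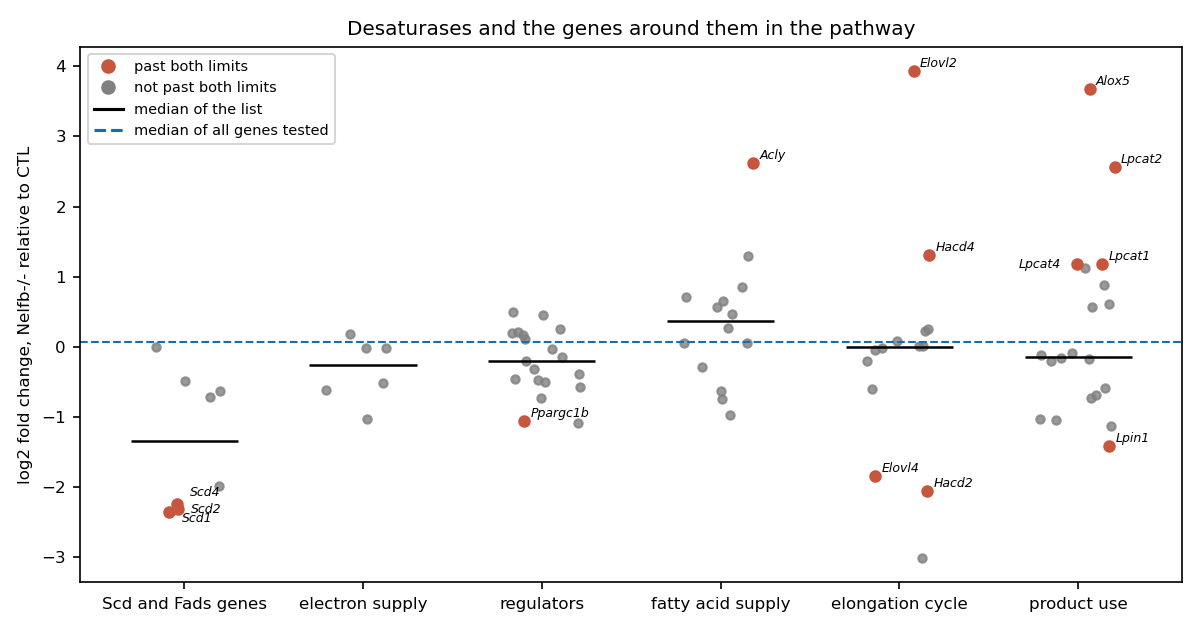
Log2 fold change in Nelfb-/- relative to CTL cultures (y axis) of each tested gene of the desaturases and of 5 lists of genes around them, with the median of each list as a bar and that of all genes as a dashed line. The median of the desaturases is -1.35 and those of the other lists lie between -0.26 and 0.37, with called genes in both directions for elongation and product use.

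Scd1 was also set against markers of fat cells. Of 12 adipocyte markers 1 fell (Retn, resistin), 1 rose (Lep, leptin) and 10 were not called, with a median log2 difference of -0.75. Of all tested genes 3.64% were called lower and 7.58% higher, and at an unadjusted p under 0.05 (limma) 5 of the 12 were lower and 2 higher, against 12.9% and 19.6%. The summed level of the 12 markers was 27609 to 45556 CPM in CTL against 19894 to 28227 CPM in Nelfb-/- libraries, which overlap. Scd1 reads per read of Fabp4, a fatty acid binding protein gene of fat cells, were 1.58, 1.65 and 1.62 in CTL libraries and 1.18, 0.458 and 0.496 in Nelfb-/- libraries. Per read of Plin1, a lipid droplet protein gene, they were 24.3, 21.9 and 26.3 in CTL libraries and 18.8, 6.97 and 6.59 in Nelfb-/- libraries. Per read of Adipoq, which encodes adiponectin, they were 15.9, 14.1 and 29.4 in CTL libraries and 11.0, 6.17 and 6.63 in Nelfb-/- libraries. All 3 ratios were lower in every Nelfb-/- library than in any CTL library, and Nelfb-/- replicate 1 was nearest to CTL each time. The groups were apart in this direction for 10 of the 12 adipocyte markers, and for 93% of all other tested genes, so that this count is no result about fat cell markers. It did not hold for Retn and Cfd, which encodes adipsin. Scd1 reads per Retn read were 65.9, 55.7 and 99.7 in CTL libraries and 52.5, 65.4 and 64.7 in Nelfb-/- libraries, and per Cfd read they were 28.6, 27.3 and 166 in CTL libraries and 26.0, 50.2 and 49.8 in Nelfb-/- libraries. The log2 differences of Retn and Cfd themselves were -2.12 and -2.03 (limma, adjusted p = 0.013 and 0.15). These ratios were computed as a description, with no test.

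Scd1 and Scd3 are also known from sebaceous glands, so sebocyte markers were examined. Of 6 tested, 2 were lower (Far2, a fatty acyl-CoA reductase, log2 difference -2.13, and Mc5r, a melanocortin receptor, log2 difference -1.81; limma, adjusted p = 0.014 and 0.041) and none higher, against 3.64% and 7.58% of all tested genes. All 6 had negative differences, and their median log2 difference was -1.31. The groups did not overlap for 4 of them, against 16.1% of all tested genes with Nelfb-/- lower. At an unadjusted p under 0.05 (limma) 4 were lower, against 12.9% of all tested genes. Fat cells also express several of this list. Endothelial markers summed to 7.31 to 12 CPM in CTL against 8.73 to 22.8 CPM in Nelfb-/- libraries, and keratinocyte markers to 3.29 to 3.55 CPM and 7.92 to 19.3 CPM. Muscle markers summed to 9.66 to 12.8 CPM and 49.6 to 92.3 CPM, and Schwann cell markers to 197 to 400 CPM and 608 to 771 CPM. Melanocyte markers summed to 48.6 to 73.7 CPM in CTL against 51.9 to 168 CPM in Nelfb-/- libraries. Mitf carried most of the CTL sum, at 47.2 to 72.4 CPM, and was not called (limma, adjusted p = 0.47), while 5 of 6 tested melanocyte markers were called higher. Among them the pigment gene Tyrp1 was at 0, 0 and 0.0680 CPM in CTL libraries, at or under the limit of detection, and at 34.9, 11.5 and 20.03 CPM in Nelfb-/- libraries. Called higher were 1 of 6 tested endothelial, 2 of 5 keratinocyte, 5 of 6 muscle and 4 of 6 Schwann cell markers, against 7.58% of all tested genes, and 1 Schwann cell marker was called lower, against 3.64%. The part of these cells in the desaturase levels was not tested.

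The genes whose pattern over the 6 libraries was most like that of Scd1, by the Euclidean distance of mean-centred log2 values among 16251 genes, were Proca1 (0.26), Adh1 (0.37), Pcsk4 (0.39), Dbt (0.46) and H2-Q10 (0.49). Adh1, an alcohol dehydrogenase of retinol metabolism, was at 522, 461 and 310 CPM in CTL against 86.3, 66.2 and 66.3 CPM in Nelfb-/- cultures, and Dbt, a subunit of the branched-chain keto acid dehydrogenase, was at 186, 180 and 132 CPM and 36.2, 42.2 and 37.2 CPM. Scd4 ranked 132 in likeness to Scd1, Scd2 ranked 350, Fads6 520, Scd3 1358, Fads2 1472, Fads1 2043 and Fads3 10732. For Fads2 the nearest were Zfp358 (0.23), Gm6988 (0.23), Psme1 (0.25), Tfap4 (0.29) and Greb1 (0.29), and Fads1 ranked 206. The desaturase nearest to Scd1 was thus Scd4, and the farthest was Fads3. Scd4 had only 3.0 to 13.0 reads in Nelfb-/- libraries, and the part of reads shared with Scd1 in its level was not tested.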

How the data were processed

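RNA was extracted from cultures on day 14 and sequenced as Illumina libraries, and the authors aligned reads to mm10 with STAR 2.7 and processed them in Partek 9.0.20.0202, per the submitters' processing notes. The counting method and its use of strand are not given in the sources used here. The deposited values are CPM, to which an offset of 0.0001 had been added by the authors. The offset was subtracted, and the depth of each library was read from the steps between low values. Since 69.4% to 72.1% of values up to 20 reads were whole (tolerance 0.02), counts were not recovered and no count test was run. Intervals and limits in reads cover counting error only.

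Values were multiplied by the common (geometric mean) depth of the 6 libraries and tested as log2(value + 1) with limma 3.58.1 in R 4.3.3 (trend in the variance, Benjamini-Hochberg adjustment) over the 16252 genes that averaged 10 reads or more (0.448 CPM). Fold changes are on this scale, which understates changes of low genes. The limits for a call, taken from the study's methods, were an adjusted p of 0.05 and a 2-fold change. The fit was tested on simulated data. Ratios of 2 genes within a library were compared by exact permutation tests. No libraries were duplicates, but they were not equally far apart. The mean chi-square per gene between libraries was 16.15 for CTL replicates 1 and 2. It was 15.72 for Nelfb-/- replicates 2 and 3, and 185 to 363 for all other pairs. Symbols of 17551 genes matched GENCODE vM21, 98.9% at the same position. The genes and lists were chosen with earlier results of these data known. Named by rule are Nelfb, the 8 desaturases, called genes of each pathway list (at most 6), 8 further genes whatever their values (Srebf1, Mlxipl, Nr1h3, Pparg, Elovl6, Elovl5, Fasn and Cyb5r3), called neighbours, and the 5 genes nearest in pattern to Scd1 and Fads2. Cell type markers were summed by list, and those named (Adipoq, Plin1, Fabp4, Retn, Lep, Cfd, Far2, Mc5r, Mitf, Tyrp1, Pdgfra, Dlk1, Dpp4, Dcn, Pi16 and the collagens) were chosen after their values were seen, as were Nr1h2, Scap and Ppard. Promoters of Scd1, Scd2 and Fads1 were not used here. Alternatives covered the pseudocount, the filter on low values, the scaling, the variance model, the replicate block and each library left out in turn.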

Additional observations from a re-analysis of the deposited data

How the results depend on the processing

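The directions of Scd1, Scd2, Scd3, Scd4, Fads1, Fads2 and Fads6 were lower in Nelfb-/- cultures under all 17 alternatives, and the other pseudocounts, filters and scalings changed none of the 3 calls. With 3 libraries a group, leaving out one mattered more. Called genes then ranged from 426 to 2479 (1824 with all libraries) and called desaturases from 0 (without CTL replicate 1 or Nelfb-/- replicate 3) over 1 (without CTL replicate 2 or Nelfb-/- replicate 2) to 4 (without Nelfb-/- replicate 1). The log2 difference of Scd1 ranged from -2.49 to -2.26 (limma, adjusted p 0.013 to 0.14), with its call lost in each of 4 cases, without CTL replicate 1 or 2 or Nelfb-/- replicate 2 or 3. Scd4 ranged from -2.68 to -1.89 (adjusted p 0.022 to 0.13) and lost its call in the same 4 cases. Scd2 ranged from -2.58 to -1.93 (adjusted p 0.022 to 0.066), its call lost without CTL replicate 1 or Nelfb-/- replicate 3. Fads6 ranged from -2.65 to -1.44, called without Nelfb-/- replicate 1. Fads3 ranged from -0.28 to 0.54 and was below 0 by the median of ratios (-0.069), the upper quartile (-0.069) and the total without the desaturases (-0.032). The difference between the groups in the Scd1 to Scd2 log2 ratio ranged from -0.51 to 0.21. With gene-wise variances and no moderation, an alternative chosen after seeing the data, 684 genes and 1 desaturase were called. Scd1 (-2.36) kept its call with an SE of 0.17 in place of 0.47 (limma, adjusted p = 0.022), and Scd2 (-2.32, adjusted p = 0.071) and Scd4 (-2.25, adjusted p = 0.092) lost theirs. Correlations of same-numbered libraries were 0.52, -0.39 and 0.52, so the numbers did not pair the libraries. With the replicate block 2175 genes and 4 desaturases were called, the fourth being Fads6 (-1.99, adjusted p = 0.042). Depth limits Scd4, at 3.0 to 13.0 reads in Nelfb-/- libraries.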
